A study of Mus musculus with 20 samples.

Results

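The 8 genes described are the dual specificity phosphatases Dusp1, Dusp2, Dusp3, Dusp4, Dusp5, Dusp6, Dusp10 and Dusp16, followed in mouse bone marrow-derived macrophages. They were taken by symbol from a table of 22165 genes, each symbol matched 1 Ensembl gene, and all 8 passed the filter on low counts that left 10663 genes for testing. The mice were C57BL/6 and wild type, and their marrow was grown for 7 days in RPMI with m-CSF, the growth factor that turns bone marrow precursors into macrophages. In the groups named DI, the macrophages were exposed to 250 µM dimethyl itaconate, an ester of the macrophage metabolite itaconate, for 12 h before the stimulus. In the groups named Ctrl they were not, and the labels do not say whether Ctrl cells received a vehicle. Both arms were then given LPS, a bacterial cell wall component, together with the cytokine IFNg, and RNA was taken at 0, 1, 2, 4 and 6 h, which gives 10 groups of 2 libraries. The age of the mice is not given in the sources used here, and nothing says whether the 2 libraries of a group came from separate mice or cultures, so the p-values measure the spread between these libraries, which may be technical.

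Dual specificity phosphatases of this family switch off mitogen-activated protein (MAP) kinases by removing phosphate from both the threonine and the tyrosine of the activation loop. The MAP kinases ERK, p38 and JNK carry signals from TLR4, the LPS receptor, to the transcription of cytokine genes, and many of the phosphatases are themselves transcribed in response to MAP kinase activity, which makes them negative feedback regulators. Dusp1 (MKP-1), Dusp2 (PAC-1), Dusp4 (MKP-2) and Dusp5 are inducible nuclear enzymes, Dusp6 (MKP-3) is a cytoplasmic enzyme that acts on ERK, and Dusp10 (MKP-5) and Dusp16 (MKP-7) act on JNK and p38. Dusp3 (VHR) is a small atypical member that lacks the domain with which the others bind MAP kinases.

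The promoters of Dusp1, Dusp5 and Dusp2 are printed to show which response elements stand next to these start sites. Dusp1 and Dusp5 were both higher in DI macrophages before the stimulus. Dusp2 was the phosphatase whose DI level stood furthest below that of Ctrl after the stimulus. Each window runs from 250 bases before to 50 bases after the start site (RefSeq, GRCm38.p6), read 5′ to 3′ on the gene's strand, with matches to the motifs searched in capitals.
Dusp1, chr17:26508423-26508722, minus strand: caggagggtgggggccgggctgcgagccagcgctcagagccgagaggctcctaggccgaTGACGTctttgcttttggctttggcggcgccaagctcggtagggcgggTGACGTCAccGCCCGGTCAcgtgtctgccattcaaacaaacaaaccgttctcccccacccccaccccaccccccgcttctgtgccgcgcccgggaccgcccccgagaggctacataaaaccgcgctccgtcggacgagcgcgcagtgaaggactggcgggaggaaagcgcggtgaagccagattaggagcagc
Dusp5, chr19:53528895-53529194, plus strand: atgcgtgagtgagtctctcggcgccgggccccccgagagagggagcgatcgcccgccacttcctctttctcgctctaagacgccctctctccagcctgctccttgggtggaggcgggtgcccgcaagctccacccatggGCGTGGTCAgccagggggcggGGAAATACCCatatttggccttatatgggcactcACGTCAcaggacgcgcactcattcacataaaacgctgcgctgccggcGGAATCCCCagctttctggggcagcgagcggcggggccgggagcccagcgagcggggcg
Dusp2, chr2:127335909-127336208, plus strand: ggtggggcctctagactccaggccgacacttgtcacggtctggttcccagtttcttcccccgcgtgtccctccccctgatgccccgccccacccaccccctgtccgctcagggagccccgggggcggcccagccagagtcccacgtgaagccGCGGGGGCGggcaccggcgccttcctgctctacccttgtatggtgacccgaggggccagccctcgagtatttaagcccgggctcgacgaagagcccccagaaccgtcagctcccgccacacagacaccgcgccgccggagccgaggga
In Dusp1 the full cAMP response element TGACGTCA begins at −143, in bases from the start site, and its core TGACGT, which also lies within the full element, occurs again at −191. The antioxidant response element TGACNNNGC, the sequence bound by NRF2, matched on the opposite strand at −133. In Dusp5 the core TGACGT matched on the opposite strand at −56, as did the NF-kB sequence at −90, its shorter form GGGNNTTCC at −9 and TGACNNNGC at −111. In Dusp2 a single match was found, to the EGR sequence GCGNGGGCG at −98.

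Among 32841 RefSeq promoters of the same length, both strands searched, TGACGTCA occurred in 1.79%, TGACGT in 7.51%, the NF-kB sequence in 1.63%, its shorter form GGGNNTTCC in 5.82%, TGACNNNGC in 12.4% and GCGNGGGCG in 5.55%. Of the 8 genes 7 were matched to a promoter, Dusp4 being the exception. TGACNNNGC was also present in Dusp3 and GCGNGGGCG in Dusp16. The AP-1 sequence TGANTCA, the interferon gamma activation site TTCNNNGAA, the interferon-stimulated response element, the ETS sequence CCGGAAG and TATAAA, present in 7.81, 8.3, 3.44, 8.86 and 13.62% of all promoters, were not in any of the 7 windows. These matches describe letters only, since no binding or chromatin data were part of the analysis.

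The libraries read the 3′ ends of polyadenylated transcripts. Total counts were 3982073 to 6725447 in DI libraries and 3655977 to 8938983 in Ctrl libraries. DI libraries held fewer distinct transcripts at similar depth: among genes for which 4 to 12 reads were expected, DI libraries had 15.4 to 49.2% at 0, against 3.33 to 12.9% in Ctrl libraries. The reads per starting molecule estimated from those shares were 3.58 to 10.2 in DI and 1.82 to 3.31 in Ctrl, highest in replicate 2 of DI at 4 h. By that estimate low counts in DI rest on few molecules, and their part in the results for Dusp2, Dusp10 and Dusp16 was not tested beyond the collapsed counts given with the alternatives. All 8 macrophage markers were detected, with summed levels of 2620 to 4382 CPM (counts scaled to a common library total) in DI and 3246 to 4757 in Ctrl. The 5 fibroblast or stroma markers summed to 5.30 to 39.7 CPM in DI and 38.5 to 68.7 in Ctrl, and their part in the results was not tested. The T cell marker Cd3e was at 0 in every library, and summed T cell, B cell and erythroid markers reached at most 3.77 CPM in DI and 15.4 CPM in Ctrl. Neutrophil markers summed to 254 to 514 CPM in DI and 239 to 593 in Ctrl, and dendritic cell markers to 3.79 to 23.6 CPM in DI and 6.14 to 16.7 in Ctrl.

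The first comparison sets DI against Ctrl at each time, with separate libraries at every time. Before the stimulus, DI macrophages had more Dusp1, Dusp4 and Dusp5 transcript than Ctrl macrophages. After it Dusp4 stayed higher under DI at all 4 times, Dusp2 was lower at all 4, and Dusp16 was lower at 4 and 6 h. Dusp3 and Dusp6 were higher under DI at 4 and 6 h. Dusp1 was higher at 2 h and lower at 6 h, and Dusp10 did not pass the test at any time. Calls here and below are at an adjusted p under 0.05 from edgeR's quasi-likelihood test, with Benjamini-Hochberg adjustment over the 10663 genes within a contrast.

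Of the 8 phosphatases, 3 were called at 0 h, against 3.60% of all genes tested. The 3 were higher, as were 1.43% of genes, while 2.17% were lower. At 1 h 2 were called against 4.89% of genes, 1 higher against 1.86% and 1 lower against 3.03%. At 2 h 3 were called against 6.24%, 2 higher against 2.27% and 1 lower against 3.97%. At 4 h 5 were called against 9.43%, 3 higher against 3.43% and 2 lower against 6.00%. At 6 h 6 were called against 14.2%, 3 higher against 5.24% and 3 lower against 8.95%. That makes 19 of 40 tests, 12 of them higher in DI. The members did not move as a block: the median log2 difference over the 8 was 0.07, −0.11, 0.12, −0.08 and −0.09 at 0, 1, 2, 4 and 6 h, beside −0.05, 0.00, −0.03, −0.06 and −0.03 over all genes tested. RNA was taken from whole cultures, so fewer cells of a kind and less RNA per cell cannot be told apart in any of these values.

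**Figure D1:**
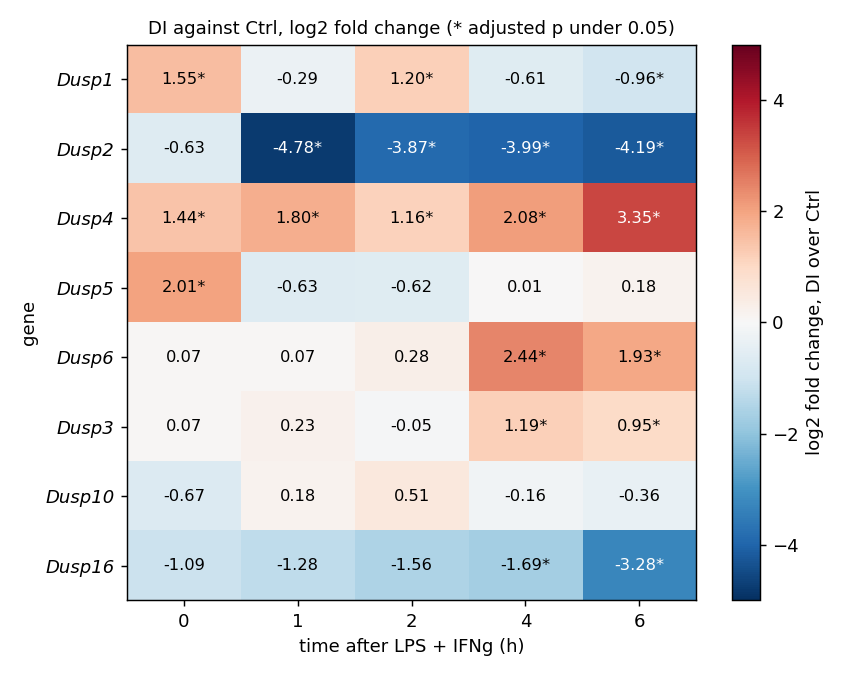
Log2 fold change of DI over Ctrl for each of the 8 phosphatases (rows) at 0, 1, 2, 4 and 6 h after LPS and IFNg (columns), coloured red where DI was higher and blue where it was lower; asterisks mark an adjusted p under 0.05. Dusp4 is positive in every column, from 1.16 to 3.35, and Dusp2 lies between −4.78 and −3.87 at 1 to 6 h.

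Dusp1 encodes MKP-1, the phosphatase best known in mouse macrophages for restraining p38 and JNK after LPS. Its gene lies at chr17:26505590-26562128 on the minus strand (GRCm38, GENCODE), an interval that extends upstream of the RefSeq promoter window printed above. In DI macrophages it had 149 and 106 CPM at 0 h, 565 and 703 at 1 h, 566 and 791 at 2 h, 178 and 122 at 4 h, and 251 and 215 at 6 h. In Ctrl macrophages it had 40.8 and 46.5 CPM at 0 h, 810.1 and 738 at 1 h, 244 and 346 at 2 h, 189 and 267 at 4 h, and 515 and 393 at 6 h. The arms did not overlap at any time, but their order changed: DI was above Ctrl at 0 and 2 h and below it at 1, 4 and 6 h. In Ctrl the transcript peaked at 1 h and was high again at 6 h, whereas in DI the 1 h and 2 h libraries overlapped and no later library came near them. Over the 10 groups the mean was highest in Ctrl at 1 h (774 ± 50.7 CPM, SD, n = 2 here and below), then DI at 2 h (679 ± 159) and DI at 1 h (634 ± 98.1), each overlapping the next, and lowest in Ctrl at 0 h (43.6 ± 4.02).

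At 0 h Dusp1 was 2.92-fold higher in DI (log2 1.55 ± 0.30, SE, adjusted p = 0.00198), and at 2 h 2.30-fold higher (1.20 ± 0.29, adjusted p = 0.0118). At 6 h it was lower in DI, at 0.514 of the Ctrl level (−0.96 ± 0.29, adjusted p = 0.0261). The differences at 1 h (−0.29 ± 0.29, adjusted p = 0.717) and 4 h (−0.61 ± 0.29, adjusted p = 0.207) did not pass. Against 0 h, Dusp1 rose in DI by 2.31 ± 0.30 at 1 h and 2.41 ± 0.30 at 2 h, stood at 0.23 ± 0.29 at 4 h (adjusted p = 0.637) and rose by 0.87 ± 0.29 at 6 h (adjusted p = 0.0353), against rises of 4.15 ± 0.33, 2.76 ± 0.31, 2.38 ± 0.30 and 3.38 ± 0.32 in Ctrl. The 0 h difference did not pass without replicate 1 of Ctrl at 0 h (1.45, adjusted p = 0.0579) or with the 2 groups fitted alone (1.59, adjusted p = 0.0873). The 2 h difference was lost without replicate 1 of Ctrl (0.96, adjusted p = 0.211) or replicate 2 of DI (0.93, adjusted p = 0.163). The 6 h difference was lost without replicate 1 of Ctrl (−0.76, adjusted p = 0.232), replicate 1 of DI (−1.08, adjusted p = 0.0599) or replicate 2 of DI (−0.86, adjusted p = 0.154). The rise at 6 h in DI was lost without replicate 2 of DI at 0 h (0.64) or either DI library of 6 h (0.75 and 0.97). By the GENCODE interval the gene overlaps Ergic1 on the opposite strand, which had 6726 counts in all 20 libraries together. The strand setting of the counting is not given in the sources used here.

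**Figure D2:**
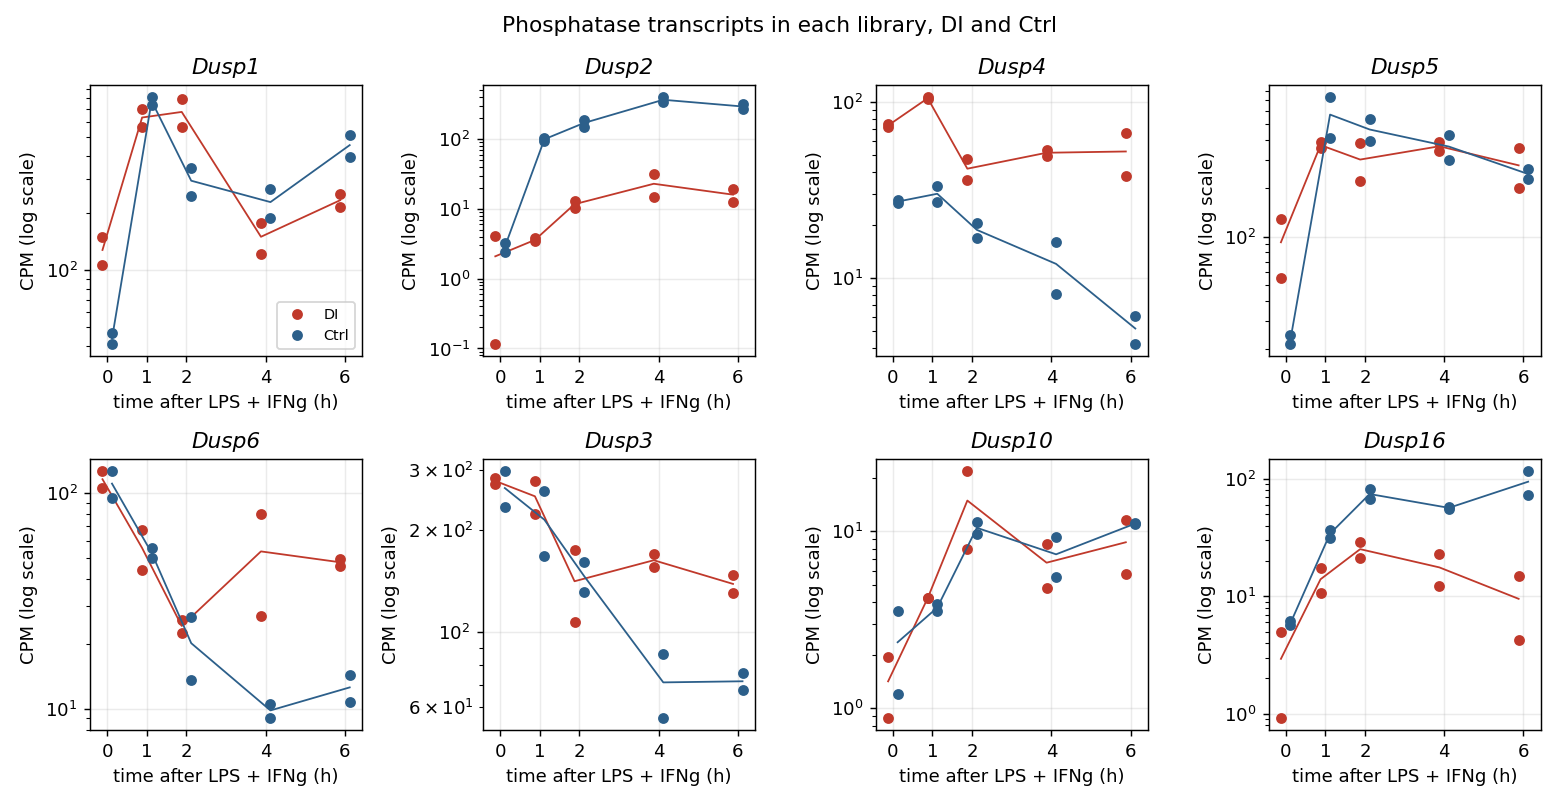
Level of each phosphatase in every library (points, CPM on a log scale that differs between panels) against hours after LPS and IFNg, with DI in red and Ctrl in blue, drawn slightly apart; lines join the means of the 2 libraries of each group. At 4 h Dusp2 stands at 31.2 and 14.6 CPM in DI and at 335 and 397 CPM in Ctrl, and at 6 h Dusp4 stands at 66.4 and 37.7 CPM in DI and at 6.08 and 4.19 CPM in Ctrl.

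Dusp2 encodes PAC-1, a nuclear phosphatase first found in activated lymphocytes, at chr2:127336159-127338376 on the plus strand. It was the phosphatase with the largest difference between the arms. The DI libraries held 4.06 and 0.115 CPM at 0 h, 3.42 and 3.77 at 1 h, 10.4 and 12.9 at 2 h, 31.2 and 14.6 at 4 h, and 19.5 and 12.5 at 6 h. The Ctrl libraries held 3.28 and 2.42 CPM at 0 h, 105 and 94.0 at 1 h, 151 and 189.8 at 2 h, 335 and 397 at 4 h, and 269 and 318 at 6 h. The highest DI library of any time (31.2 CPM) stood below the lowest stimulated Ctrl library (94.0 CPM), while at 0 h the arms overlapped. In the order of the groups, Ctrl at 4 h (366 ± 44.5 CPM), 6 h (293 ± 34.9), 2 h (170.2 ± 27.7) and 1 h (99.6 ± 7.83) came first with no overlap between neighbours, and DI at 4 h (22.9 ± 11.8), 6 h (16.0 ± 5.0) and 2 h (11.7 ± 1.74), which overlapped in turn, came next. The DI values rest on few reads: 23 and 1 at 0 h, 17 and 27 at 1 h, 46 and 50 at 2 h, 128 and 55 at 4 h, and 95 and 44 at 6 h.

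Dusp2 in DI stood at 0.0364 of the Ctrl level at 1 h (log2 −4.78 ± 0.57, adjusted p = 4.79e-06), 0.0685 at 2 h (−3.87 ± 0.53, adjusted p = 3.39e-05), 0.0628 at 4 h (−3.99 ± 0.53, adjusted p = 1.54e-05) and 0.0550 at 6 h (−4.19 ± 0.53, adjusted p = 5.22e-06). These 4 calls held under all 15 alternatives run for each, with a lowest and highest value of −4.86 and −3.55. Without replicate 1 of DI at 4 h the value there was −4.65. At 0 h the difference was −0.63 ± 0.63 (adjusted p = 0.793), and it was −4.41 (adjusted p = 0.00399) without replicate 1 of DI, which leaves the library with 1 read. From 0 h Dusp2 rose in DI by 2.64 ± 0.61 at 2 h, 3.62 ± 0.60 at 4 h and 3.11 ± 0.61 at 6 h, and at 1 h its change was 0.95 ± 0.66 (adjusted p = 0.589). In Ctrl it rose by 5.11 ± 0.57, 5.88 ± 0.58, 6.99 ± 0.61 and 6.67 ± 0.60 at the 4 times. The DI responses depend on the 0 h libraries: without replicate 1 they were 4.72 (adjusted p = 0.0014), 6.41, 7.39 and 6.88, and without replicate 2 the last 3 were 1.51 (adjusted p = 0.0543), 2.49 and 1.98. Without replicate 1 of DI at 4 h the response there was 2.96.

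Dusp4 encodes MKP-2, a nuclear phosphatase close in sequence to MKP-1, at chr8:34807297-34819894 on the plus strand. Levels in DI were 74.8 and 71.5 CPM at 0 h, 106 and 103 at 1 h, 47.2 and 35.9 at 2 h, 49.0 and 53.3 at 4 h, and 66.4 and 37.7 at 6 h. Levels in Ctrl were 26.4 and 27.6 CPM at 0 h, 26.9 and 33.0 at 1 h, 20.4 and 16.9 at 2 h, 8.06 and 15.9 at 4 h, and 6.08 and 4.19 at 6 h. All 10 DI libraries were above all 10 Ctrl libraries. The highest group was DI at 1 h (104 ± 1.85 CPM, mean ± SD, n = 2) and the lowest Ctrl at 6 h (5.13 ± 1.34), and of the neighbours in the order of the groups only DI at 6 and 4 h, and Ctrl at 1 and 0 h, overlapped.

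Dusp4 was higher in DI by 1.44 ± 0.34 on the log2 scale at 0 h (2.71-fold, adjusted p = 0.0129), 1.80 ± 0.34 at 1 h (adjusted p = 0.00142), 1.16 ± 0.35 at 2 h (adjusted p = 0.0464), 2.08 ± 0.36 at 4 h (adjusted p = 0.000377) and 3.35 ± 0.40 at 6 h (10.2-fold, adjusted p = 2.30e-06). In Ctrl the transcript fell after the stimulus, by 1.16 ± 0.36 at 4 h (adjusted p = 0.0173) and by 2.40 ± 0.40 at 6 h (adjusted p = 4.86e-05), after 0.15 ± 0.34 at 1 h and −0.54 ± 0.34 at 2 h. In DI no time differed from 0 h by the test: 0.51 ± 0.33, −0.81 ± 0.34, −0.51 ± 0.33 and −0.49 ± 0.33, with adjusted p of 0.133 to 0.552. The differences at 4 and 6 h held under every alternative, while that at 0 h was lost without either Ctrl library of 0 h (1.40 and 1.46) or replicate 1 of DI (1.39), and with the groups fitted alone (1.48). The 1 h difference was lost without replicate 1 of Ctrl (1.65, adjusted p = 0.0522). That at 2 h was lost without any 1 of its 4 libraries (0.95 and 1.34 for the DI libraries, 1.29 and 1.02 for the Ctrl libraries), and with the groups alone (1.18). The Ctrl fall at 4 h was lost without either Ctrl library of 0 h (−1.20 and −1.14) or replicate 1 of Ctrl at 4 h (−0.77, adjusted p = 0.274), and was −1.75 without replicate 2.

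Dusp5 encodes an inducible nuclear phosphatase that acts on ERK, at chr19:53529109-53542431 on the plus strand. In DI macrophages it had 55.3 and 129 CPM at 0 h, 354 and 385 at 1 h, 222 and 379.8 at 2 h, 339 and 389 at 4 h, and 201 and 353 at 6 h. In Ctrl macrophages it had 24.3 and 21.5 CPM at 0 h, 733 and 411 at 1 h, 533 and 391 at 2 h, 298 and 426 at 4 h, and 262 and 227 at 6 h. The arms separated at 0, 1 and 2 h, with DI above Ctrl at 0 h and below it at 1 and 2 h, and overlapped at 4 and 6 h. Mean levels ran from 572 ± 227 CPM in Ctrl at 1 h to 92.1 ± 52.1 in DI at 0 h and 22.9 ± 2.01 in Ctrl at 0 h, and the 6 groups in the order from DI at 1 h to Ctrl at 6 h each overlapped the next. The higher DI level before the stimulus was the only difference between the arms that passed: 4.03-fold, log2 2.01 ± 0.38 (adjusted p = 0.00185). At 1 to 6 h the differences were −0.63, −0.62, 0.01 and 0.18, each ± 0.36, with adjusted p of 0.359 to 0.998.

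Dusp5 rose in both arms at every time after the stimulus. The rises in DI were 2.00 ± 0.38, 1.70 ± 0.37, 1.98 ± 0.38 and 1.58 ± 0.37 at 1, 2, 4 and 6 h, and in Ctrl 4.64 ± 0.42, 4.33 ± 0.42, 3.98 ± 0.41 and 3.42 ± 0.40. The 2 DI libraries of 0 h differ, and without replicate 2, the one with 129 CPM, the 0 h difference from Ctrl was 1.26 (adjusted p = 0.0867). With the groups fitted alone it was 2.05 (adjusted p = 0.101). Without replicate 2 of DI at 0 h the DI responses were 2.74, 2.44, 2.71 and 2.32, and without replicate 1 they were not called at 1, 2 and 6 h (1.52, 1.22 and 1.10). The responses at 2 and 6 h were also lost without replicate 2 of DI at that time (1.26 and 1.12).

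Dusp6 encodes MKP-3, a cytoplasmic phosphatase specific for ERK and a common transcriptional readout of ERK activity, at chr10:99263231-99267489 on the plus strand. The DI libraries held 125 and 105 CPM at 0 h, 66.9 and 43.9 at 1 h, 22.5 and 25.8 at 2 h, 26.8 and 80.1 at 4 h, and 49.3 and 45.9 at 6 h. The Ctrl libraries held 94.3 and 126 CPM at 0 h, 49.99 and 55.4 at 1 h, 26.6 and 13.6 at 2 h, 10.6 and 9.06 at 4 h, and 14.3 and 10.8 at 6 h. The arms overlapped at 0, 1 and 2 h and separated at 4 and 6 h, where each DI library was above each Ctrl library. At 4 h the DI replicates were far apart, replicate 2 being the higher. The mean was highest in DI at 0 h (115 ± 14.3 CPM) and Ctrl at 0 h (110.1 ± 22.4), which overlapped, and lowest in Ctrl at 6 h (12.5 ± 2.51) and 4 h (9.81 ± 1.06), which did not.

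Dusp6 was 5.44-fold higher in DI at 4 h (log2 2.44 ± 0.43, adjusted p = 0.000463) and 3.81-fold higher at 6 h (1.93 ± 0.43, adjusted p = 0.00296). At 0, 1 and 2 h the log2 differences were 0.07 ± 0.38, 0.07 ± 0.39 and 0.28 ± 0.41, with adjusted p of 0.771 to 0.98. The transcript fell from 0 h in both arms. In DI the change was −2.26 ± 0.41 at 2 h (adjusted p = 0.000331), −1.11 ± 0.39 at 4 h (adjusted p = 0.0492) and −1.28 ± 0.39 at 6 h (adjusted p = 0.0228). In Ctrl the changes were −2.47 ± 0.41, −3.49 ± 0.44 and −3.14 ± 0.44 at those times, and at 1 h the change was −1.06 ± 0.39 in both DI and Ctrl, with adjusted p of 0.177 and 0.188. Without replicate 2 of DI at 4 h, the library with the most reads per molecule, the difference from Ctrl was 1.45 (adjusted p = 0.0463) and the DI change from 0 h was −2.11. That change was not called without either DI library of 0 h (−0.98 and −1.24) or replicate 1 of DI at 4 h (−0.53). The 6 h difference was lost without replicate 2 of Ctrl (1.73, adjusted p = 0.0578), and the DI change at 6 h without replicate 1 of DI at 0 h (−1.15) or either DI library of 6 h (−1.33 and −1.23).

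Dusp16 encodes MKP-7, a phosphatase that acts on JNK and p38, at chr6:134715468-134792625 on the minus strand. Levels in DI were 4.95 and 0.922 CPM at 0 h, 10.6 and 17.3 at 1 h, 29.3 and 21.2 at 2 h, 12.2 and 23.1 at 4 h, and 14.8 and 4.25 at 6 h. Levels in Ctrl were 6.16 and 5.64 CPM at 0 h, 31.4 and 37.0 at 1 h, 66.9 and 81.6 at 2 h, 58.1 and 55.3 at 4 h, and 117 and 72.6 at 6 h. DI was below Ctrl in every library at every time. The mean was highest in Ctrl at 6 h (94.7 ± 31.1 CPM) and 2 h (74.3 ± 10.4), which overlapped, and the 4 stimulated DI groups, from 25.2 ± 5.74 at 2 h to 9.52 ± 7.46 at 6 h, each overlapped the next. The difference passed at 4 h (−1.69 ± 0.51, adjusted p = 0.0354) and at 6 h, where DI stood at 0.103 of the Ctrl level (−3.28 ± 0.54, adjusted p = 0.000135).

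At the other times the Dusp16 differences were −1.09 ± 0.57 at 0 h (adjusted p = 0.413), −1.28 ± 0.50 at 1 h (adjusted p = 0.171) and −1.56 ± 0.50 at 2 h (adjusted p = 0.0611). The 2 h difference passed with limma-voom (adjusted p = 0.0124) and DESeq2 (adjusted p = 0.0254). From 0 h the transcript rose at every time in both arms, by 2.34 ± 0.57, 3.19 ± 0.57, 2.66 ± 0.58 and 1.81 ± 0.58 in DI and by 2.53 ± 0.52, 3.65 ± 0.54, 3.26 ± 0.53 and 4.00 ± 0.55 in Ctrl. In DI the libraries of 6 h (14.8 and 4.25 CPM) overlapped those of 0 h (4.95 and 0.922 CPM), and 6 of 15 alternatives ended the 6 h call, limma-voom among them (adjusted p = 0.0663). The 6 h difference held under all 15 alternatives and was −4.48 without replicate 1 of DI and −2.68 without replicate 2. The 4 h difference was lost without any 1 of its 4 libraries (−1.30 and −2.22 for the DI libraries, −1.66 and −1.73 for the Ctrl libraries). DI at 0 h had 28 and 8 reads, so the DI responses move with it: without replicate 1 they were 3.90, 4.74, 4.22 and 3.37, and without replicate 2 they were 1.502 (adjusted p = 0.185), 2.34, 1.82 and 0.97 (adjusted p = 0.318). The 0 h difference was −2.66 (adjusted p = 0.0441) without replicate 1 of DI. The DI response at 1 h was not called without replicate 2 of DI at 1 h (1.94), and that at 6 h was 0.62 without replicate 1 of DI at 6 h and 2.42 without replicate 2. In Ctrl the 1 h rise was not called without either library of 0 h (2.59 and 2.47).

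Dusp10 encodes MKP-5, which acts on JNK and p38, at chr1:184013302-184075636 on the plus strand. It rested on few reads at 0 h, 5 and 17 in the DI libraries and 15 and 35 in the Ctrl libraries. In DI macrophages it had 0.884 and 1.96 CPM at 0 h, 4.22 and 4.18 at 1 h, 7.94 and 21.9 at 2 h, 8.54 and 4.77 at 4 h, and 5.75 and 11.6 at 6 h. In Ctrl macrophages it had 1.20 and 3.53 CPM at 0 h, 3.53 and 3.89 at 1 h, 11.3 and 9.63 at 2 h, 5.56 and 9.28 at 4 h, and 11.1 and 11.1 at 6 h. The mean was highest in DI at 2 h (14.9 ± 9.89 CPM) and lowest in DI at 0 h (1.42 ± 0.761), and the 6 highest groups each overlapped the next. The arms overlapped at 4 of the 5 times, and the log2 differences were −0.67 ± 0.70, 0.18 ± 0.66, 0.51 ± 0.63, −0.16 ± 0.65 and −0.36 ± 0.64 at 0, 1, 2, 4 and 6 h. None passed edgeR's test, limma-voom or DESeq2, and the lowest unadjusted p from edgeR was 0.346.

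Dusp10 rose with the stimulus in both arms. In DI the rises were 3.33 ± 0.71 at 2 h (adjusted p = 0.00193), 2.17 ± 0.71 at 4 h (adjusted p = 0.0317) and 2.54 ± 0.70 at 6 h (adjusted p = 0.0115), and in Ctrl 2.15 ± 0.66 at 2 h (adjusted p = 0.0316) and 2.23 ± 0.67 at 6 h (adjusted p = 0.0144). The change at 1 h was 1.51 ± 0.70 in DI (adjusted p = 0.342) and 0.66 in Ctrl (adjusted p = 0.97), and that at 4 h in Ctrl was 1.66 ± 0.66 (adjusted p = 0.0708). Without replicate 1 of Ctrl at 0 h the Ctrl rises were 1.56 and 1.64 and not called, and without replicate 2 they were 3.09 and 3.18. They were also lost without either Ctrl library of 2 h (2.03 and 2.26) or of 6 h (2.22 and 2.23). The DI rises without replicate 2 of DI at 0 h were 4.04, 2.88 (adjusted p = 0.0509) and 3.25. The rise at 2 h was 3.95 without replicate 1 of DI at 2 h and not called without replicate 2 (2.42). That at 4 h was lost without replicate 1 of DI at 0 h (1.75) or at 4 h (1.68), with limma-voom (adjusted p = 0.0922) and with counts collapsed to estimated molecules (2.34, adjusted p = 0.0807), among 8 of 15 alternatives that ended it. That at 6 h was lost without replicate 1 of DI at 0 h (2.12) or replicate 2 at 6 h (1.95).

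Dusp3 encodes VHR, the small atypical phosphatase, at chr11:101971143-101987013 on the minus strand. The DI libraries held 274 and 284 CPM at 0 h, 279 and 223 at 1 h, 175 and 107 at 2 h, 156 and 169.9 at 4 h, and 130.3 and 147 at 6 h. The Ctrl libraries held 233 and 298 CPM at 0 h, 168 and 261 at 1 h, 161 and 131 at 2 h, 55.9 and 86.3 at 4 h, and 67.3 and 75.9 at 6 h. The arms overlapped at 0, 1 and 2 h, and at 4 and 6 h every DI library was above every Ctrl library. The 8 groups from DI at 0 h (279 ± 6.81 CPM) to DI at 6 h (139 ± 11.8) each overlapped the next, and Ctrl at 6 h (71.6 ± 6.12) and 4 h (71.1 ± 21.5) stood below them. Dusp3 was 2.29-fold higher in DI at 4 h (1.19 ± 0.30, adjusted p = 0.0123) and 1.93-fold higher at 6 h (0.95 ± 0.30, adjusted p = 0.036), with differences of 0.07, 0.23 and −0.05 before.

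From 0 h, Dusp3 in DI changed by −0.98 ± 0.30 at 2 h (adjusted p = 0.0335) and −1.01 ± 0.30 at 6 h (adjusted p = 0.0178), with −0.78 ± 0.30 at 4 h (adjusted p = 0.071). In Ctrl it changed by −1.90 ± 0.31 at 4 h and −1.89 ± 0.31 at 6 h, with −0.86 at 2 h (adjusted p = 0.0606). The Ctrl change at 2 h passed with limma-voom (adjusted p = 0.0333) and DESeq2 (adjusted p = 0.0359). The DI change at 2 h minus that of Ctrl was −0.12 ± 0.42 and did not pass. The 4 h difference between the arms was lost without replicate 1 of Ctrl (0.91) or replicate 2 of DI (1.12), and that at 6 h without any 1 of its 4 libraries (1.03 and 0.86 for the DI libraries, 0.86 and 1.04 for the Ctrl libraries). The DI change at 2 h was lost without either DI library of 0 h (−1.01 and −0.96) or replicate 2 of 2 h (−0.67), and that at 6 h without replicate 2 of 0 h (−0.99) or either library of 6 h (−0.93 and −1.10).

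The second comparison follows the response to LPS and IFNg within each arm. Dusp1, Dusp2, Dusp5, Dusp10 and Dusp16 were the inducible members in both arms, while Dusp3 and Dusp6 fell in both, and Dusp4 fell in Ctrl. In DI, 3 members were called at 1 h against 3.59% of all genes, 7 at 2 h against 11.0%, 5 at 4 h against 18.7% and 7 at 6 h against 20.2%. In Ctrl, 4 were called at 1 h against 4.07%, 6 at 2 h against 12.2%, 7 at 4 h against 24.3% and all 8 at 6 h against 26.5%. These are 22 of 32 tests in DI and 25 of 32 in Ctrl. The 4 responses of an arm share its 0 h libraries, so the times are not independent of each other.

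**Figure D3:**
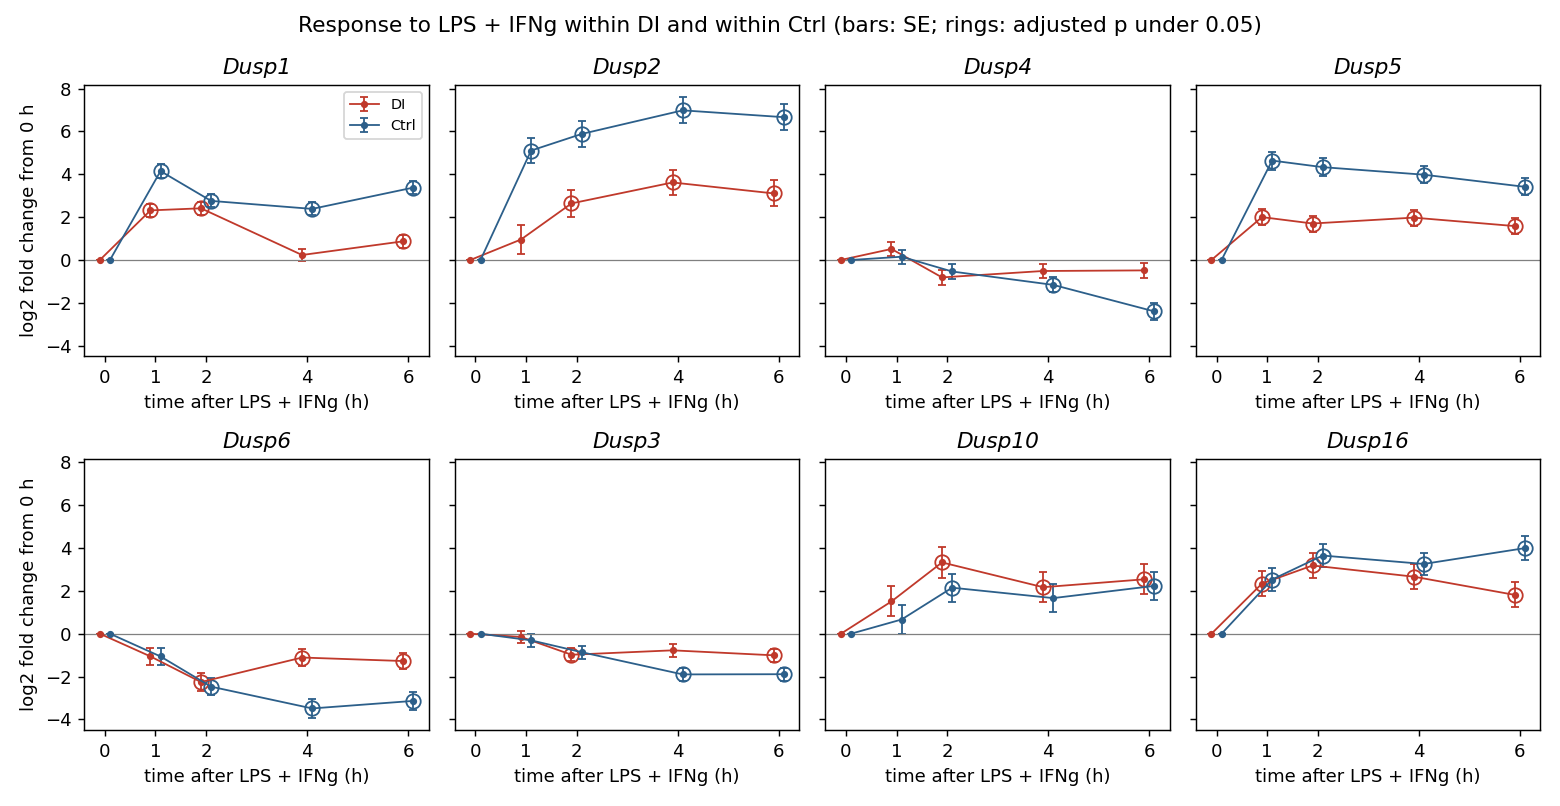
Log2 fold change from 0 h within DI (red) and within Ctrl (blue) for each phosphatase against hours after LPS and IFNg; bars are standard errors and rings mark an adjusted p under 0.05. The Dusp1, Dusp2 and Dusp5 curves of DI run below those of Ctrl, with Dusp5 at 1.58 to 2.00 in DI and 3.42 to 4.64 in Ctrl, and for Dusp6 the DI curve turns upward after 2 h.

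Whether the response itself differed was tested by subtracting the Ctrl response from that of DI, a quantity named the response difference here. Dusp1 responded less in DI at 4 h (−2.15 ± 0.41, adjusted p = 0.00847) and 6 h (−2.51 ± 0.41, adjusted p = 0.00151), and Dusp5 at 1 h (−2.64 ± 0.52, adjusted p = 0.021) and 2 h (−2.63 ± 0.52, adjusted p = 0.015). Dusp2 responded less at 1 h (−4.15 ± 0.87, adjusted p = 0.0335) and 6 h (−3.56 ± 0.83, adjusted p = 0.0277). Dusp6 fell less at 4 h (2.38 ± 0.57, adjusted p = 0.0482). The response differences share the 0 h libraries with the 0 h comparison of DI and Ctrl, where Dusp1 and Dusp5 were already higher in DI. For Dusp5, the levels reached at 4 and 6 h overlapped between the arms, as given above.

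These were 2 calls at 1 h against 0.253% of all genes tested, 1 at 2 h against 0.356%, 2 at 4 h against 0.760% and 2 at 6 h against 1.55%, or 7 of 32 tests. Of the 7, the Dusp1 difference at 6 h held under all 19 alternatives, between −2.73 and −2.24. The Dusp2 differences rest on the 0 h libraries: without replicate 1 of DI at 0 h they were −0.38 at 1 h and 0.22 at 6 h, and without replicate 2 they were −5.27 and −4.68. With limma-voom they were −2.71 (adjusted p = 0.731) and −2.14 (adjusted p = 0.504). In all, 13 of the 19 alternatives ended the call at 1 h, and 9 ended that at 6 h besides the 1 that changed its sign. The Dusp5 differences were −1.90 and −1.89 and not called without replicate 2 of DI at 0 h. Of the 19 alternatives, 9 ended the Dusp5 call at 1 h and 6 ended that at 2 h. At 1 h limma-voom called 0 of the 8 members. The Dusp6 difference was 1.39 (adjusted p = 0.396) without replicate 2 of DI at 4 h and 2.96 without replicate 1, and 13 of the 19 alternatives ended this call. The Dusp1 difference at 4 h was lost without replicate 1 of Ctrl at 0 h (−2.06), replicate 2 of Ctrl at 4 h (−1.88) or replicate 2 of DI at 4 h (−1.90).

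Other response differences did not pass. Those of Dusp1 were −1.83 ± 0.41 at 1 h (adjusted p = 0.0549) and −0.35 ± 0.41 at 2 h, and those of Dusp2 were −3.24 ± 0.84 at 2 h (adjusted p = 0.106) and −3.37 ± 0.83 at 4 h (adjusted p = 0.0557). For Dusp4 the difference at 6 h was 1.92 ± 0.52 (adjusted p = 0.0633), and it passed without replicate 2 of DI at 6 h (2.26, adjusted p = 0.0377). For Dusp5 it was −2.005 ± 0.52 at 4 h (adjusted p = 0.0773) and −1.83 ± 0.52 at 6 h (adjusted p = 0.0854). For Dusp6 at 6 h it was 1.86 ± 0.57 (adjusted p = 0.119), for Dusp16 at 6 h −2.18 ± 0.78 (adjusted p = 0.202) and for Dusp3 at 4 h 1.12 ± 0.42 (adjusted p = 0.301). The differences of Dusp10 were 0.84 ± 0.96, 1.18 ± 0.94, 0.51 ± 0.95 and 0.31 ± 0.93 at 1, 2, 4 and 6 h.

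The course after the first hour was compared as 6 h against 1 h, a contrast that does not use the 0 h libraries. In DI, Dusp1 fell by 1.44 ± 0.29 (adjusted p = 0.00102), Dusp2 rose by 2.15 ± 0.56 (adjusted p = 0.00861), and Dusp3 (−0.86 ± 0.30, adjusted p = 0.0458) and Dusp4 (−1.0 ± 0.34, adjusted p = 0.0387) fell. In Ctrl, Dusp2 rose by 1.56 ± 0.47 (adjusted p = 0.018) and Dusp16 by 1.47 ± 0.49 (adjusted p = 0.0336), while Dusp3 (−1.58 ± 0.31), Dusp4 (−2.55 ± 0.40), Dusp5 (−1.23 ± 0.37, adjusted p = 0.0174) and Dusp6 (−2.08 ± 0.43) fell. These are 4 of 8 members in DI against 18.8% of all genes, and 6 of 8 in Ctrl against 21.1%. No member was called for the difference between the arms, against 2.10% of all genes: edgeR called 0, with 3 members at an unadjusted p under 0.05, limma-voom called 0 and DESeq2 called 1. The nearest were Dusp6 (1.86 ± 0.58, adjusted p = 0.0971), Dusp4 (1.55 ± 0.52, adjusted p = 0.13) and Dusp16 (−1.99 ± 0.71, adjusted p = 0.163, and −3.19 with adjusted p = 0.0389 without replicate 1 of DI at 6 h).

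Leaving out libraries ended several of the 6 h against 1 h calls. In DI the Dusp2 rise was lost without either library of 1 h (2.09 and 2.23) or replicate 1 of 6 h (1.78), the Dusp3 fall without any 1 of its 4 libraries (−0.69, −1.01, −0.78 and −0.95), and the Dusp4 fall without either library of 1 h (−0.99 and −1.02) or replicate 2 of 6 h (−0.65). In Ctrl the Dusp2 rise was lost without any 1 of its 4 libraries (1.64, 1.48, 1.67 and 1.43). The Dusp5 fall was lost without replicate 1 of 1 h (−0.75) or either library of 6 h (−1.33 and −1.13), and the Dusp16 rise without either library of 1 h (1.35 and 1.59) or replicate 1 of 6 h (1.08). The Dusp1 fall in DI and the Dusp3, Dusp4 and Dusp6 falls in Ctrl held under all 15 alternatives.

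The rest of the MAP kinase pathway was read from lists of genes, whose counts stand beside the share of all 10663 genes called in the same contrast. For DI against Ctrl those shares were 3.60, 4.89, 6.24, 9.43 and 14.2% at 0, 1, 2, 4 and 6 h. MAP kinase-responsive transcription factors, of which 15 of 17 were tested, had 5 members called in DI at 1 h, all lower, against 4.89% of all genes, with a median log2 difference of −0.54 beside 0.00 over all genes. The 5, named after their values were seen, were the immediate-early genes Ier2 (−4.03 ± 0.49), Egr1 (−2.79 ± 0.34), Fos (−2.27 ± 0.47), Junb (−1.47 ± 0.30) and Egr2 (−1.33 ± 0.39). The response of Ctrl at 1 h had 9 members of the list called, all higher, against 4.07% of all genes, led by Egr1 (7.11 ± 0.42), Egr2 (5.07 ± 0.47), Junb (2.71 ± 0.32) and Jun (2.18 ± 0.31). Egr1 had 78.9 ± 0.935 CPM in DI and 544 ± 56.1 CPM in Ctrl at 1 h (SD, n = 2 each). At 0 h 2 of the list were higher in DI, Fosl1 (4.71 ± 0.86) and Egr2 (1.94 ± 0.44), against 3.60% of all genes called. The Fosl1 value rests on a Ctrl level near the floor, 0.382 ± 0.315 CPM against 10.2 ± 0.625 CPM in DI (SD, n = 2 each). At 2 h 1 was higher and 1 lower against 6.24%, and at 4 h 3 were higher and 4 lower against 9.43%. At 6 h 3 were higher (Egr2, Fos and Fosl1) and 3 lower (Ier2, Junb and Jun) against 14.2%, these genes too being named after their values were seen. In Ctrl at 6 h Egr2 stood at 0.299 ± 0.423 CPM and Fosl1 at 1.11 ± 0.551 CPM, and Fosl1 in DI at 9.48 ± 7.80 CPM (SD, n = 2 each).

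A list named other ERK pathway feedback inhibitors had 9 of 11 members tested. It also holds regulators of G protein signalling, Rgs1 among them, and Ier3, whose effect on ERK was not tested. Its counts therefore do not stand for ERK feedback inhibitors alone. Members lower in DI were 1 at 0 h, 3 at 1 h, 3 at 2 h with 1 higher, 2 at 4 h and 2 at 6 h. The shares of all genes called either way at those times were 3.60, 4.89, 6.24, 9.43 and 14.2%. Those called lower were 2.17, 3.03, 3.97, 6.00 and 8.95%, and 2.27% were called higher at 2 h. Rgs1, a regulator of G protein signalling, was lower at all 4 stimulated times (−1.43 ± 0.27, −1.58 ± 0.27, −2.58 ± 0.28 and −1.90 ± 0.28), and was named after its values were seen, as was Spry2, a Sprouty inhibitor of ERK signalling that was higher at 2 h (1.41 ± 0.38). In Ctrl at 4 h against 0 h this list had 5 members called higher and 3 lower, against 24.3% of all genes called, led by Rgs1 (2.87 ± 0.29), Spred1 (2.08 ± 0.27), Ier3 (2.67 ± 0.39) and Errfi1 (2.20 ± 0.34).

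Of 21 MAP kinase kinases and their activators tested, 1 was called at 0 h against 3.60% of all genes, 3 at 4 h against 9.43% and 7 at 6 h against 14.2%. The counts at 0 and 4 h are near the share of all genes, which is also highest at 6 h. At 1 and 2 h edgeR called 0, with 1 and 3 at an unadjusted p under 0.05 and 0 and 1 called by both limma-voom and DESeq2. At 6 h 6 were lower in DI and 1 higher, with a median of −0.61 beside −0.03 over all genes. The lower ones included Map3k8, the kinase TPL2 that links TLR4 to ERK (−1.55 ± 0.33), Braf (−1.35 ± 0.32) and Map3k1 (−1.26 ± 0.31). These were chosen after their values were seen. In Ctrl at 4 h 5 of the list rose and 4 fell, against 24.3% of all genes called, led by Tab2 (2.24 ± 0.30), Map3k8 (2.14 ± 0.33), Map2k1 (1.62 ± 0.30) and Map3k14 (−2.19 ± 0.46).

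Of 10 other dual specificity phosphatases tested, 1 was called in any contrast of DI and Ctrl, Dusp23 at 6 h (1.87 ± 0.56, adjusted p = 0.0247), and of 7 MAP kinases 1, Mapk7, which encodes ERK5, at 6 h (1.70 ± 0.43, adjusted p = 0.00778), near the 14.2% of all genes called then. The Dusp23 call was made by DESeq2 as well and not by limma-voom. At the other times edgeR called 0 of either list, with 0 to 2 at an unadjusted p under 0.05, while limma-voom and DESeq2 each called 1 of the phosphatases at 1 h. Of 9 downstream kinases and RNA-binding targets, 1 was called, Mknk2 at 6 h (1.73 ± 0.55, adjusted p = 0.0368), near the 14.2% of all genes called then. For this list limma-voom called 0 at 6 h and DESeq2 1, and each called 1 at 1 h. At 4 h Zfp36, whose product destabilises cytokine transcripts, rose by 2.40 ± 0.27 in DI and 3.08 ± 0.28 in Ctrl, and the p38 substrate Mapkapk2 by 2.27 ± 0.29 in DI and 2.67 ± 0.29 in Ctrl. Of 8 other protein phosphatases tested, 2 were called at 0 h against 3.60% of all genes, 1 at 4 h against 9.43% and 1 at 6 h against 14.2%. Ppp2cb was higher in DI at 0 h (1.87 ± 0.41) and Ppm1b lower at 4 h (−1.22 ± 0.34). Ptprc, lower at 0 h (−1.06 ± 0.29), and Ptpn6, lower at 6 h (−1.25 ± 0.38), encode CD45 and SHP-1, tyrosine phosphatases known for acting on Src-family kinases and receptor signalling rather than on MAP kinases. These genes were likewise named after their values were seen.

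The genes most like each member were found by the Pearson correlation of mean log2 CPM over the 10 groups, whose means share their libraries and scaling, and the r values are given as a description. For Dusp1 they were Fosl2 (0.928) and Nfil3 (0.916), for Dusp2 Mpp1 (0.984) and Mbnl2 (0.974), and for Dusp4 Rassf8 (0.978) and Ube4b (0.970). For Dusp5 they were Cxcl2 (0.946), a neutrophil-attracting chemokine, and Maff (0.934), for Dusp6 Pdp2 (0.979) and Stab1 (0.969), and for Dusp3 Cebpa (0.981) and Xpc (0.972). Dusp10 was most like Snx18 (0.966) and Ugcg (0.959), and Dusp16 most like Tet2 (0.981) and Ch25h (0.976). None of the 8 phosphatases was among the nearest genes of another.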

How the data were processed

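RNA of 20 libraries of mouse bone marrow-derived macrophages was sequenced from barcoded oligo-dT primers, pooled after first-strand synthesis by Actb level and amplified for 12 PCR cycles into stranded libraries, per the labels' protocols, which name no molecular identifiers. STAR, HTSeq, DESeq2 and the mm10 build appear in the submitters' processing notes without versions. The authors deposited 1 table of raw counts, whole numbers for each Ensembl gene and library, not normalized. Symbols and positions came from GENCODE M21 (GRCm38), which matched 21745 of 22165 genes, and promoters from RefSeq (GRCm38.p6).

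Counts were analysed in R 4.3.3. The filterByExpr function, applied by group, left 10663 genes, and levels are CPM with library sizes scaled by TMM, the trimmed mean of M values. Summed marker levels are CPM of the library total without TMM factors. A quasi-likelihood fit by edgeR 4.0.16 (glmQLFit, robust) used all 20 libraries with a coefficient for each of the 10 groups. A call is an adjusted p under 0.05 (Benjamini-Hochberg within each of 20 contrasts), whatever the fold change, and standard errors were computed from the F statistic. The steps were tested on simulated counts drawn with the same dispersion for every gene. Those counts did not carry the difference in reads per molecule between the arms, so the test does not cover it. Replicates differed beyond sampling noise, with a chi-square per degree of freedom of 14.4 to 42.8.

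Named genes are the 8 phosphatases in every group and contrast, the 2 genes most like each of them, and up to 4 members of each pathway list with the smallest p in the contrast with the most calls. Other genes of the lists are named where the text says that they were chosen after their values were seen. The members, the lists and the tests were chosen with earlier results of these data known. The values of 1 gene of the pathway lists are not reported here. Alternatives were DESeq2 size factors, TMM factors from abundant genes (32 CPM or more on average), all genes unfiltered, a minimum of 5 CPM in any 2 libraries, limma-voom (limma 3.58.1), the DESeq2 1.42.0 Wald test, a fit to only the groups compared, the replicate number as a block, and leaving out libraries. Quality weights by treatment in limma-voom and counts collapsed to estimated molecules were added after seeing the data. For each comparison 15 alternatives were run, and 19 for a response difference, counting each left-out library. Reads per molecule were estimated from the share at 0 of genes with 4 to 12 expected reads. The expected reads came from the mean share of each gene in the other libraries of the arm, all times together. Genes that change with the stimulus can therefore also be at 0, and their part in the estimate was not tested. The total counts bound the precision of each value, and intervals from counting alone were not used.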

Additional observations from a re-analysis of the deposited data

Results flagged for a closer look

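Each of the 7 results below is a response to LPS and IFNg that differed between DI and Ctrl by the test of the difference itself (DI response minus Ctrl response, edgeR, adjusted p under 0.05). At 1 h the response differences were −4.15 for Dusp2, with responses of 0.95 in DI and 5.11 in Ctrl, and −2.64 for Dusp5, with 2.00 in DI and 4.64 in Ctrl. At 2 h the difference was −2.63 for Dusp5, with 1.70 in DI and 4.33 in Ctrl. At 4 h it was −2.15 for Dusp1, with 0.23 in DI and 2.38 in Ctrl, and 2.38 for Dusp6, with −1.11 in DI and −3.49 in Ctrl. At 6 h it was −2.51 for Dusp1, with 0.87 in DI and 3.38 in Ctrl, and −3.56 for Dusp2, with 3.11 in DI and 6.67 in Ctrl. The Dusp2 values move with the DI libraries of 0 h, which had 23 reads and 1 read, and the Dusp6 value with replicate 2 of DI at 4 h. Without replicate 2 of DI at 0 h the Dusp5 values were −1.90 at 1 h and −1.89 at 2 h.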

How the results depend on the processing

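Of the 160 differences of the 8 phosphatases, 83 were called. DESeq2 size factors ended 2 of these calls and added 1, TMM factors of abundant genes ended 7 and added 5, using no filter ended 0 and added 12, the 5 CPM filter ended 1 and added 0, limma-voom ended 6 and added 4, and DESeq2 ended 1 and added 11. The compared groups alone ended 26 and added 6, leaving out replicate 2 of DI at 2, 4 and 6 h together ended 13 and added 6, quality weights ended 18 and added 6, and estimated molecules ended 2 and added 9. No call changed sign under these settings. Leaving out 1 library gave 800 values, of which 360 belonged to calls, each call being counted once for every library left out. It ended 121 of these, added 13 calls and changed the sign of 1. That one was the Dusp2 response difference at 6 h, which was 0.22 without replicate 1 of DI at 0 h and ranged from −4.68 to 0.22.

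By family, DI against Ctrl had 19 calls and 16 to 21 when 1 library was left out. The Ctrl responses had 25 and 21 to 26, and the 6 h against 1 h contrasts 10 and 6 to 11. The DI responses had 22 calls, 11 with the compared groups alone, 12 with quality weights and 14 to 22 without 1 library. The response differences had 7 calls, 15 with no filter, 12 with DESeq2, 3 with limma-voom, 3 with quality weights, 1 with the compared groups alone and 1 to 9 without 1 library. Fewer samples enter the fits of the groups alone, and for the other settings the cause was not tested.

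Of the DI against Ctrl calls, the groups alone also ended that of Dusp1 at 2 h (adjusted p = 0.0671) and 6 h (adjusted p = 0.0533). TMM factors of abundant genes ended that of Dusp1 at 6 h (−0.81, adjusted p = 0.07) and of Dusp16 at 4 h (−1.58, adjusted p = 0.0539). Without replicate 2 of DI at 2, 4 and 6 h together those of Dusp1 at 2 h (0.93) and 6 h (−0.86), Dusp3 at 4 h (1.13) and Dusp3 at 6 h (0.86) were lost. limma-voom gave Dusp2 responses in DI of 4.03, 4.93 and 4.51 at 2, 4 and 6 h. The TMM factors of abundant genes moved the median of all genes by up to 0.34, in Ctrl at 4 h against 0 h (−0.34), and by 0.11 and 0.15 in DI against Ctrl at 4 and 6 h.

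With the replicate number as a block the 5 families had 18, 25, 21, 5 and 10 calls. The labels do not say whether the numbers pair libraries across groups. The deviations of replicate 1 from its group mean correlated between −0.14 and 0.11 over 45 pairs of groups, over 0.1 in 2 of them. With 2 libraries per group these correlations cannot tell whether libraries shared a source. In DI the estimated reads per molecule were higher in replicate 2 at every time, from 5.65 against 3.58 at 0 h to 9.54 against 5.88 at 6 h. The calls lost under the block were Dusp4 in DI against Ctrl at 2 h (adjusted p = 0.0553), Dusp6 in DI at 4 h against 0 h (adjusted p = 0.0602), and the response differences of Dusp2 at 1 h (adjusted p = 0.0527) and Dusp6 at 4 h (adjusted p = 0.0625). Few reads limit Dusp2, Dusp10 and Dusp16 in DI, where single libraries held 1 to 28 reads at 0 h. The library with 1 Dusp2 read had the highest total count of the DI libraries, 6725447.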
